A study of Bos indicus x Bos taurus with 17 samples.

Results

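The 10 genes of a machinery that makes, loads and protects small RNAs and tRNA fragments were followed in the fetal liver and skeletal muscle of cattle. They were chosen by name as genes for RNA cleavage (DICER1, DROSHA), Argonaute loading (AGO1, AGO2, AGO3, AGO4), tRNA end processing (ELAC2), tRNA methylation (NSUN2, TRDMT1) and ribonuclease inhibition (RNH1). All 10 symbols were found, among 21048 genes listed per tissue, and all 10 passed the filter on low values in each comparison. The fetuses were F1 crosses of Nelore (Bos taurus indicus) and Holstein (Bos taurus taurus) cattle at about day 105 of gestation. Control-AI fetuses, numbers 2 and 4, were conceived by artificial insemination, and ART-Normal fetuses, numbers 1 to 4, were conceived by assisted reproduction and are labelled healthy. The study's methods give the ART-Normal group as produced in vitro with a weight like that of controls, but list numbers 1 to 3 only, so the weight class of number 4 is not given in the sources used here. Liver and muscle were taken from each of the 6 fetuses, which gave 12 libraries. Both groups are of 1 cross and 1 stage, and the values of the Control-AI group rest on 2 fetuses. The study asked how tRNA-derived fragments (tRFs) differ with the method of conception, and its gene counts allow the genes that make such fragments to be compared between tissues and between conception groups.

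In animal cells, DROSHA cuts primary microRNA transcripts in the nucleus, and DICER1 cuts the resulting hairpins, and some tRNAs, in the cytoplasm. Argonaute proteins hold the short strands and guide them to target transcripts. A tRNA precursor is trimmed at its 3′ end by ELAC2, receives its CCA tail, and is methylated at cytosines by NSUN2 and TRDMT1, which in other species protects it from cutting by angiogenin and related ribonucleases. RNH1 is the protein that binds and blocks those ribonucleases.

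A few of the fragments the study catalogued show where these enzymes act. TRDMT1 methylates cytosine 38, which lies just behind the anticodon, in 3 nuclear tRNAs, and 1 fragment of each is shown 5′ to 3′ with that cytosine in capitals.
Asp GTC: ccgcctgtcaCgcgggaga
Gly GCC: caCgcgggaggcccgggtt
Val AAC: caCgcgaaaggtccctggt
The 3 fragments were picked for holding the bases cacgcg around this cytosine, so these bases are shared by selection. A Gln CTG fragment that runs to the end of the mature tRNA carries the CCA tail, in capitals, that is added where ELAC2 has cut.
Gln CTG: gtctcggtggaacctCCA
Fragment levels were not analysed here, and the fragments are shown only to place the enzymes.

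Libraries held 12433300 to 43339598 counts, the lowest in the muscle of Control-AI 2. Levels are given as CPM, each gene's counts scaled to a common library total, after TMM normalization over the 12 libraries, which adjusts each library for its composition. They were counted over whole gene spans, introns included, so they are compared between samples and not between genes. Hepatocyte markers summed to 25001 to 328303 CPM in liver and 24.7 to 350 CPM in muscle, and skeletal muscle markers to 14774 to 23888 CPM in muscle and 1.89 to 26.6 CPM in liver. Each tissue label was matched by its own markers. Erythroid markers reached 5077 to 23911 CPM in liver against 88.6 to 651 CPM in muscle, and connective tissue markers 20705 to 26679 CPM in muscle against 543 to 1152 CPM in liver. Macrophage markers reached 354 to 516 CPM in liver and 65.0 to 96.7 CPM in muscle. Endothelial markers summed to 415 to 467 CPM in liver and 658 to 745 CPM in muscle, but the list was split. PECAM1, CDH5, KDR and TIE1 were higher in muscle, and VWF was higher in liver (196 to 238 against 55.8 to 72.2 CPM). Adipose markers reached at most 6.78 CPM in any library, with ADIPOQ and FABP4 at or near 0. Control-AI 2 stood apart in both tissues. Its liver had the highest hepatocyte and erythroid sums (the other 5 livers reached at most 49610 and 6105 CPM) and the highest skeletal muscle sum (26.6 CPM against 1.89 to 5.20 CPM), and its muscle the highest hepatocyte sum (350 CPM against 24.7 to 62.0 CPM). In both tissues of Control-AI 2, genes whose opposite-strand neighbour had 16 or more times their counts were above the mean of the other 5 libraries, by a median of 1.21 in liver and 1.32 in muscle on the scale of log2(CPM + 0.5), against -0.042 and -0.046 for genes with no gene on the other strand. In bulk tissue, a different mix of cells and a different amount of RNA per cell cannot be told apart, and the part of cell mix in the differences below was not tested.

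Between tissues, every member differed: 3 were higher in liver (AGO2, ELAC2, NSUN2) and 7 were lower in liver than in muscle (DICER1, DROSHA, AGO1, AGO3, AGO4, TRDMT1, RNH1). Of the 12923 genes tested with the edgeR quasi-likelihood test and Benjamini-Hochberg adjustment, 81.3% were called at an adjusted p of 0.05 or lower, so a call between these tissues was the usual outcome. By direction, 40.6% of genes were called higher in liver and 40.7% lower. The 6 liver and 6 muscle libraries did not overlap for 8 of the 10 members, against 64.4% of genes, and overlapped for AGO2 and ELAC2. The median size of the change was 0.79 on the log2 scale for the members and 0.91 for all genes, while the median signed change was -0.79 for the members and 0.0061 for all genes. The plot of levels by library shows that most members were set apart by tissue and only a few by conception group.

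**Figure D1:**
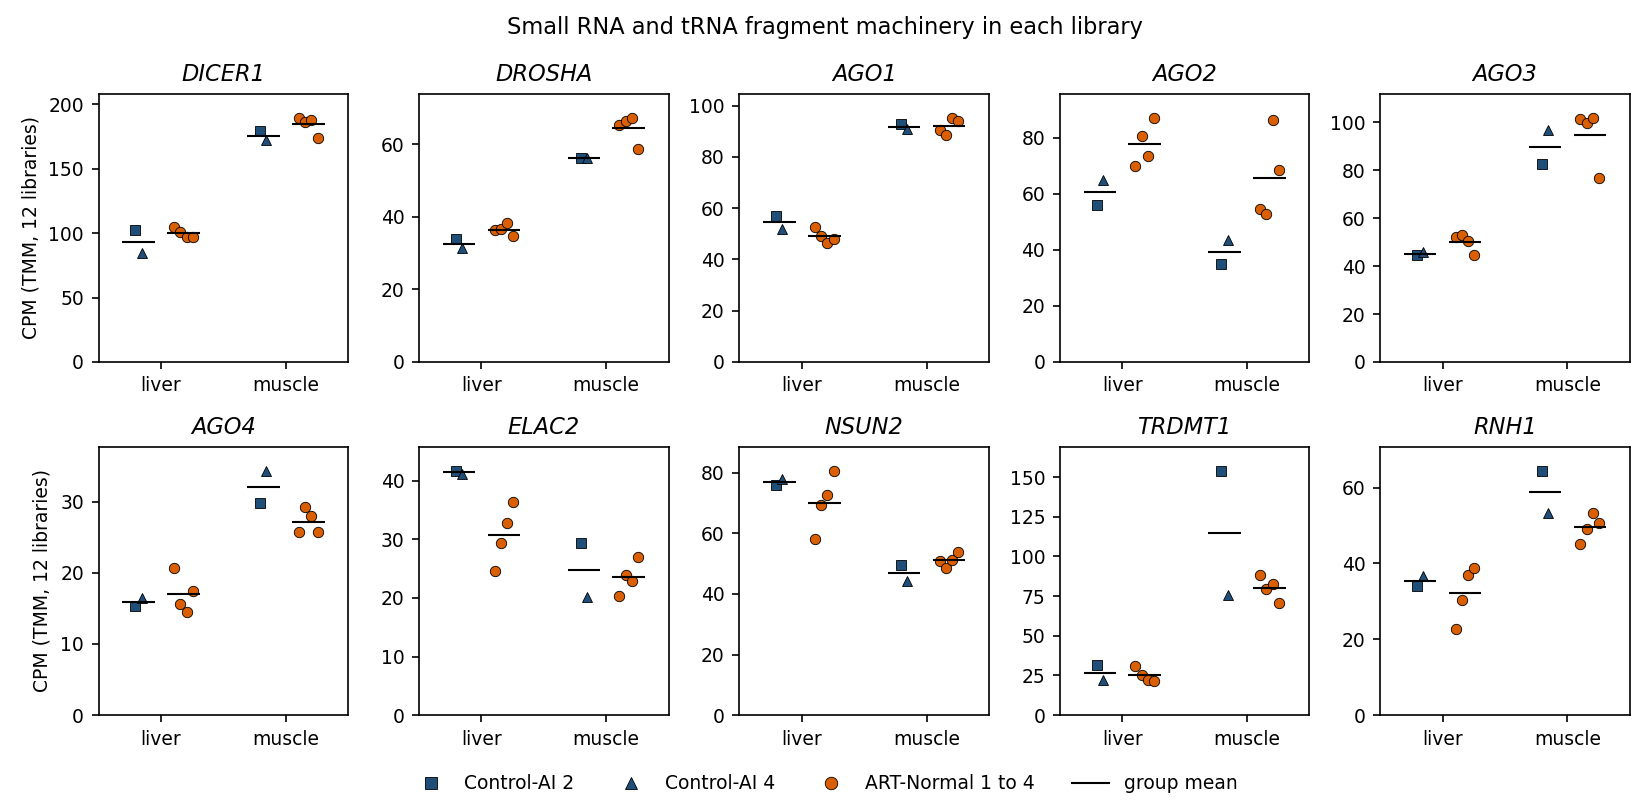
Level of each member in every library, in CPM after TMM normalization (y axis from 0, a scale of its own for each gene), by tissue (x axis) and conception group. Squares and triangles are Control-AI 2 and 4, circles are ART-Normal 1 to 4, and bars are group means. TRDMT1 ran from 70.6 to 154 CPM in muscle and from 21.5 to 31.4 CPM in liver, with the top muscle value in Control-AI 2.

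Both ribonucleases of microRNA maturation had lower levels in liver than in muscle. DROSHA (chr20:41999298-42122156 on ARS-UCD1.2, plus strand), the nuclear ribonuclease, was at 33.8 and 31.3 CPM in the livers of Control-AI 2 and 4 and at 36.4, 36.6, 38.2 and 34.6 CPM in those of ART-Normal 1 to 4. In muscle it was at 56.3 CPM in both controls and at 65.3, 66.5, 67.3 and 58.8 CPM in ART-Normal 1 to 4. All muscle values lay above all liver values, and the gene was 1.74-fold lower in liver (log2 change -0.80 ± 0.068 SE, n = 6 per tissue, edgeR adjusted p = 6.82e-08).

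DICER1 (chr21:59952096-60027616, minus strand), the cytoplasmic ribonuclease, was at 102 and 84.5 CPM in control livers and 105, 101, 97.1 and 97.2 CPM in ART-Normal livers. Its muscle levels were 179 and 172 CPM in controls and 190, 187, 188 and 174 CPM in ART-Normal fetuses. It was 1.85-fold lower in liver (log2 change -0.89 ± 0.068 SE, edgeR adjusted p = 2.24e-08), with the same direction in 6 of 6 fetuses. DICER1 was among the least variable members, with a coefficient of variation of 7.24% over the livers and 4.16% over the muscles.

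The Argonautes were split by tissue. AGO1, AGO3 and AGO4, which lie next to each other on the minus strand of chromosome 3, were lower in liver, and AGO2, on chromosome 14, was higher. AGO2 is the Argonaute known to cut target transcripts itself.

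AGO1 (chr3:109875883-109914109) was at 57.1 and 52.1 CPM in control livers and at 52.6, 49.2, 46.2 and 47.8 CPM in ART-Normal livers. In muscle its values were 92.9 and 90.7 CPM in controls and 90.4, 88.7, 95.3 and 93.9 CPM in ART-Normal fetuses. The 6 muscles were close to each other (coefficient of variation 2.65%) and AGO1 was 1.80-fold lower in liver (log2 change -0.85 ± 0.067 SE, edgeR adjusted p = 2.91e-08).

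AGO3 (chr3:109741897-109873009) was at 44.5 and 45.7 CPM in control livers and at 52.0, 53.0, 50.5 and 44.8 CPM in ART-Normal livers. Its muscle values were 82.7 and 96.9 CPM in controls and 101, 99.8, 102 and 76.7 CPM in ART-Normal fetuses, so the lowest muscle, that of ART-Normal 4, was still above every liver. The gene was 1.91-fold lower in liver (log2 change -0.94 ± 0.088 SE, edgeR adjusted p = 1.99e-07).

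AGO4 (chr3:109943351-109981247) had low counts, with 15.4 and 16.5 CPM in control livers and 20.6, 15.6, 14.5 and 17.4 CPM in ART-Normal livers. In muscle it was at 29.8 and 34.3 CPM in controls and at 25.7, 29.2, 27.9 and 25.8 CPM in ART-Normal fetuses. It was 1.71-fold lower in liver, with tissues that did not overlap (log2 change -0.77 ± 0.11 SE, edgeR adjusted p = 1.43e-05). AGO4 shares 838 bp with CLSPN, a checkpoint gene on the opposite strand that was higher in liver (log2 change 1.92 ± 0.092 SE, edgeR adjusted p = 1.13e-10), opposite to AGO4. How strand was handled in the counting is not given in the sources used here, so reads of such partners may not be told apart.

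AGO2 (chr14:3100810-3138228, plus strand) was at 56.1 and 65.1 CPM in control livers and at 69.9, 80.5, 73.4 and 87.1 CPM in ART-Normal livers. In muscle it was at 34.9 and 43.5 CPM in controls and at 54.6, 52.7, 86.5 and 68.4 CPM in ART-Normal fetuses. It was higher in liver in 5 of 6 fetuses; in ART-Normal 3 the muscle level was the higher, by 0.24 on the log2 scale. The fitted change was 0.38 ± 0.13 SE (1.30-fold higher in liver, edgeR adjusted p = 0.0147). This call was the least stable among the 10, since it was lost without ART-Normal 2 (0.35, adjusted p = 0.0504) and with library size in place of TMM (0.25, adjusted p = 0.115). With a coefficient of variation of 32.4% over the 6 muscles, AGO2 was the most variable Argonaute there.

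**Figure D2:**
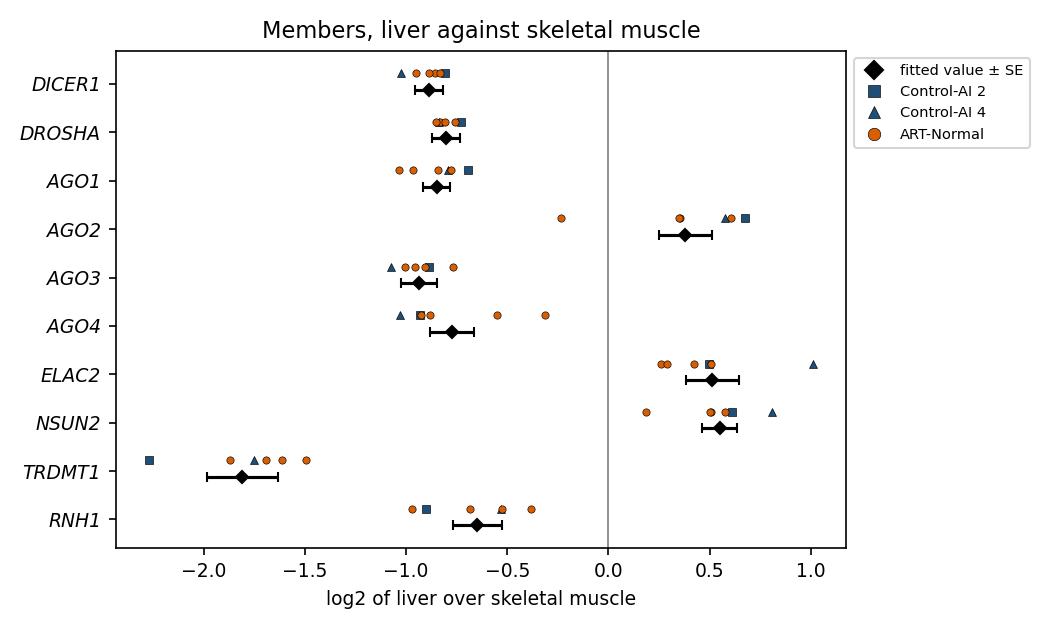
Liver over skeletal muscle on the log2 scale (x axis) for each member (y axis). Diamonds are the fitted values with SE over 12 libraries, and the small symbols above them are the single fetuses (squares and triangles Control-AI 2 and 4, circles ART-Normal). AGO2, ELAC2 and NSUN2 lie to the right of 0, with 1 fetus to the left for AGO2, and TRDMT1 lies farthest to the left at -1.81.

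Among the tRNA enzymes, ELAC2 and NSUN2 were higher in liver and TRDMT1 was lower. ELAC2 (chr19:31361733-31378657, minus strand), the endonuclease that removes the 3′ trailer of tRNA precursors ahead of the CCA tail shown above, was at 41.6 and 41.2 CPM in control livers and at 24.5, 29.3, 32.7 and 36.3 CPM in ART-Normal livers. Its muscle values were 29.4 and 20.2 CPM in controls and 20.4, 23.9, 22.8 and 27.0 CPM in ART-Normal fetuses. The tissues overlapped, yet ELAC2 was higher in liver in 6 of 6 fetuses, by 0.26 to 1.01 on the log2 scale, with a fitted change of 0.51 ± 0.13 SE (1.43-fold, edgeR adjusted p = 0.00245). It shares 350 bp with ARHGAP44 on the opposite strand, which had fewer counts than ELAC2 in both tissues.

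NSUN2 (chr20:66599079-66632689, plus strand), a cytosine methyltransferase of many tRNAs, was at 75.9 and 78.0 CPM in control livers and at 58.1, 69.4, 72.6 and 80.5 CPM in ART-Normal livers. In muscle it was at 49.6 and 44.3 CPM in controls and at 51.0, 48.7, 51.1 and 53.9 CPM in ART-Normal fetuses. No liver value was within the muscle range, and the gene was 1.46-fold higher in liver (log2 change 0.55 ± 0.088 SE, edgeR adjusted p = 4.67e-05).

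TRDMT1 (chr13:31562295-31653886, minus strand), which methylates the cytosine in capitals in the Asp, Gly and Val fragments, had the largest tissue difference of the members. It was at 31.4 and 22.1 CPM in control livers and at 30.9, 25.6, 22.2 and 21.5 CPM in ART-Normal livers. Its muscle values were 154 and 75.5 CPM in controls and 88.1, 79.3, 82.8 and 70.6 CPM in ART-Normal fetuses. It was 3.51-fold lower in liver (log2 change -1.81 ± 0.18 SE, edgeR adjusted p = 2.91e-07), and the change was -1.70 without Control-AI 2, whose muscle level stood apart from the other 5. TRDMT1 and VIM, the gene of the filament protein vimentin, start on opposite strands and share 71 bp. VIM was at 117 to 156 CPM in liver and at 1004 to 1322 CPM in muscle, and its counts were 12.9 times those of TRDMT1 in muscle and 5.18 times in liver. Like TRDMT1, VIM was lower in liver (log2 change -3.19 ± 0.10 SE, edgeR adjusted p = 1.93e-12). The part of VIM reads in the TRDMT1 level was not tested.

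RNH1 (chr29:50789133-50804307, plus strand), the ribonuclease inhibitor, was at 34.1 and 36.8 CPM in control livers and at 22.8, 30.4, 37.0 and 38.8 CPM in ART-Normal livers. In muscle it was at 64.3 and 53.3 CPM in controls and at 45.2, 49.0, 53.4 and 50.7 CPM in ART-Normal fetuses. The 2 ranges did not overlap and RNH1 was 1.57-fold lower in liver (log2 change -0.65 ± 0.12 SE, edgeR adjusted p = 0.000203). RNASE4, a secreted ribonuclease that RNH1 can bind, went the other way, at 184 to 237 CPM in liver and 30.7 to 46.1 CPM in muscle (log2 change 2.43 ± 0.12 SE, edgeR adjusted p = 1.27e-10). ANG, the gene of angiogenin, was listed at 0 in all 12 libraries. Its listed span (chr10:26396393-26412966) lies within that of RNASE4 (chr10:26391241-26412980) on the same strand. How reads in shared bases were counted is not given in the sources used here. The level of ANG can therefore not be read from these counts, and its 0 does not show absence. The same limit on shared bases holds for the level of RNASE4 and its change between tissues.

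Balances within a library do not depend on the normalization, and 3 of them were compared over the 6 fetuses with an exact two-sided permutation test, by flipping the sign of the liver minus muscle difference, with adjustment over the 3. The smallest p that 6 pairs can give is 0.0312, and each of the 3 reached it. The AGO2 share and the NSUN2 to TRDMT1 ratio set members against each other that were called in opposite directions above. Their p-values come from the same libraries and are no separate support for those calls. AGO2 took 32.4 and 36.3% of the Argonaute counts in control livers, and 35.8, 40.6, 39.8 and 44.2% in ART-Normal livers. In muscle its share was 14.5 and 16.4% in controls and 20.1, 19.5, 27.8 and 25.8% in ART-Normal fetuses. The share was thus higher in each liver than in any muscle, at 38.2% ± 4.18 (SD, n = 6) against 20.7% ± 5.19 (SD, n = 6), with a difference of 17.5 ± 3.26 percentage points (SD of 6 differences, exact permutation adjusted p = 0.0312). The share of AGO1 was 30.6 to 38.7% in muscle and 24.3 to 33.0% in liver, that of AGO3 was 29.0 to 37.2% and 22.7 to 27.4%, and that of AGO4 was 8.97 to 12.9% and 7.84 to 10.6%.

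The NSUN2 to TRDMT1 ratio changed sign on the log2 scale, from -0.83 ± 0.42 (SD, n = 6) in muscle to 1.51 ± 0.38 (SD, n = 6) in liver. The difference was 2.34 ± 0.41 (SD) and was positive in 6 of 6 fetuses, from 1.70 to 2.91 (exact permutation adjusted p = 0.0312). These counts are not per transcript length, so the sign within a tissue does not rank the genes, and only the change between tissues is read. In muscle the ratio was -1.63 in Control-AI 2 and -0.79 to -0.39 in the other fetuses. The part of VIM reads in this ratio, through the TRDMT1 counts, was not tested. DICER1 and DROSHA moved nearly in step, with a log2 ratio of 1.47 ± 0.085 (SD, n = 6) in liver and 1.56 ± 0.073 (SD, n = 6) in muscle. The difference of -0.085 ± 0.063 (SD) was negative in 6 of 6 fetuses (exact permutation adjusted p = 0.0312), and was not called when the pairing by fetus was left out (adjusted p = 0.0931).

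**Figure D3:**
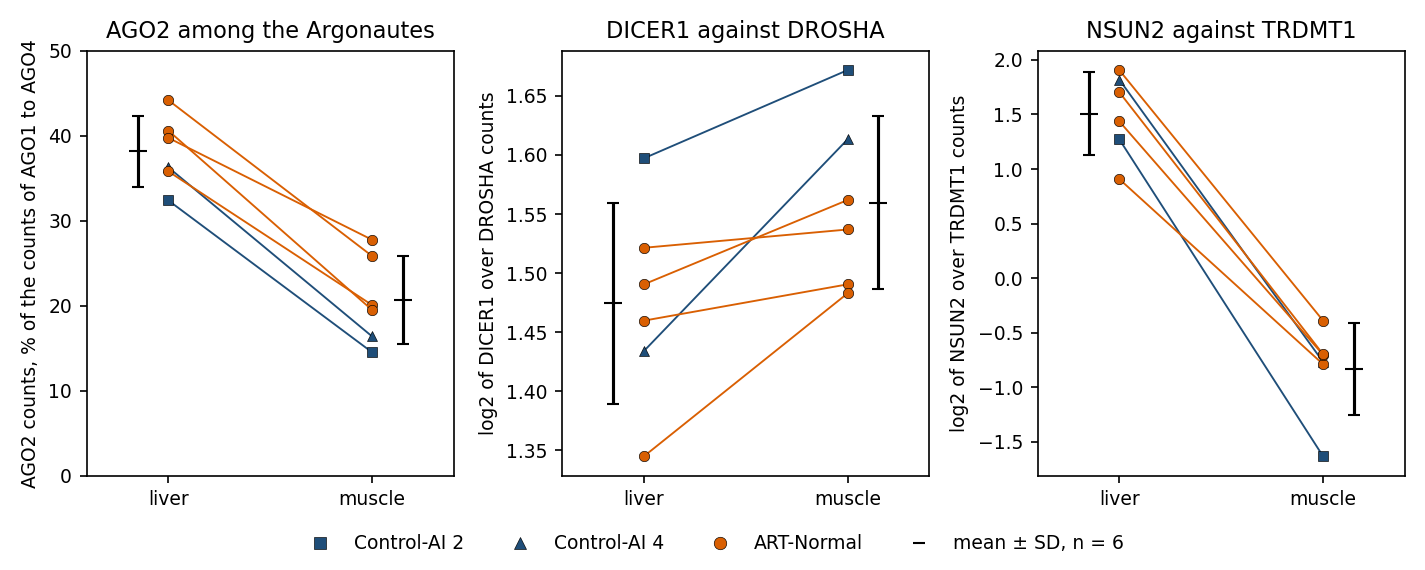
Balances between members in liver and muscle (x axis), with a line for each fetus and the mean ± SD of 6 fetuses at the side: the share of AGO2 in the Argonaute counts (y axis in percent from 0), the log2 ratio of DICER1 to DROSHA counts, and the log2 ratio of NSUN2 to TRDMT1 counts (y axes not from 0). The AGO2 share and the NSUN2 ratio fall from liver to muscle in each fetus, from means of 38.2 to 20.7% and 1.51 to -0.83, while the DICER1 ratio differs by 0.085.

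Lists of 87 other genes of these pathways were set beside the members, and 75 were tested between tissues. Of these, 35 were called higher in liver, 20 lower and 20 were not called, with a median log2 change of 0.23 against -0.79 for the members. Over all genes tested, 40.6% were called higher in liver and 40.7% lower. The counts in each list below are read beside these shares. Among the 7 microRNA processing partners, 4 were higher and 1 was lower. LIN28B, which blocks the maturation of let-7 microRNAs in fetal tissues, was at 10.8 to 17.9 CPM in liver and at most 1.14 CPM in muscle (log2 change 4.58 ± 0.29 SE, edgeR adjusted p = 2.1e-09). RAN, the GTPase of nuclear export, was also higher in liver (1.09 ± 0.33, adjusted p = 0.00751). PRKRA, a double-stranded RNA-binding partner of DICER1, was lower in liver than in muscle, like DICER1 itself, at 3.44 to 4.84 CPM against 23.4 to 33.5 CPM (log2 change -2.83 ± 0.13 SE, edgeR adjusted p = 6.66e-11). LIN28B passed the filter of 5 CPM through liver only, and PRKRA through muscle only. Genes that enter the test in this way are high in a single tissue by selection.

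Of 9 Argonaute partners, 4 were called higher in liver and 1 lower. TSNAX, a subunit of the translin complex, and MOV10, a helicase found with Argonautes, were higher (log2 changes 0.57 and 0.52), and IPO8, an importin that binds Argonautes, was lower (-0.47, edgeR adjusted p = 5.41e-05). Of 20 tRNA end processing and splicing genes tested, 10 were higher in liver, among them the RNA kinase CLP1 (2.34) and HSD17B10, a subunit of mitochondrial RNase P (2.27). Another 5 were lower, among them the splicing endonuclease subunit TSEN15 (-0.90). Of 18 tRNA modification enzymes tested, 9 were higher and 4 lower. ELP3, the catalytic subunit of Elongator, and TRMT61A, an adenosine methyltransferase, were highest over muscle (0.91 and 0.75), and NSUN6, a relative of NSUN2, was lower in liver (-0.98), as was the pseudouridine synthase PUS7 (-0.55). The relatives NSUN2 and NSUN6 therefore had opposite directions.

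All 3 of the tested ribonucleases that cut tRNA were called higher in liver, including RNASE4, given above with RNH1. Only 2 of them passed the filter in muscle as well. Of 18 genes of RNA polymerase III and its regulator MAF1, which set the output of tRNA genes, 5 were higher and 9 lower in liver. GTF3C5 (1.31) and GTF3C1 (-1.08), subunits of one transcription factor, differed in direction, MAF1 was higher (0.92) and the polymerase subunit POLR3B was lower (-0.98). None of the 4 germline Argonaute pathway genes (PIWIL1, PIWIL2, PIWIL4, HENMT1) passed the filter of 5 CPM in either tissue.

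**Figure D4:**
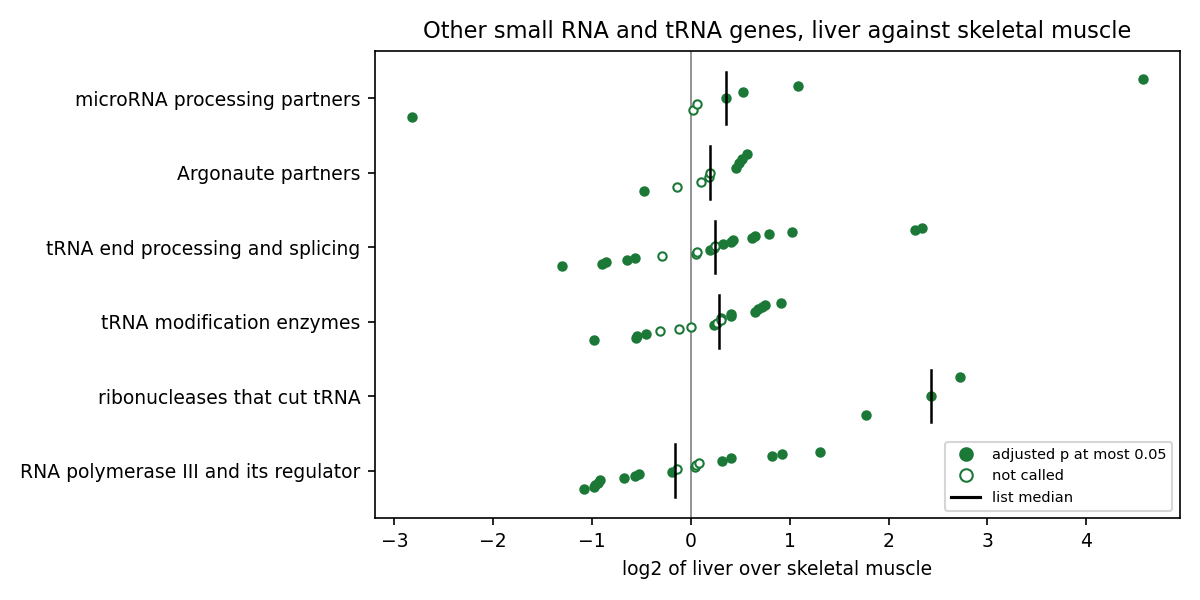
Liver over skeletal muscle on the log2 scale (x axis) for the tested genes of 6 pathway lists (y axis). Filled circles are genes at an adjusted p of 0.05 or lower, open circles were not called, and black bars are list medians. LIN28B at 4.58 and PRKRA at -2.83 are the ends of the plot, both among the microRNA processing partners. Each of these passed the filter of 5 CPM through a single tissue, that of its higher level.

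Between conception groups, no member was called. In muscle, the edgeR quasi-likelihood test over 11695 genes called 1 gene, which was no member (0.00855% of genes), and in liver it called none of 11304 (0%). By the likelihood ratio test of edgeR and by DESeq2, 0 members were called as well, in either tissue. In muscle, 2 of 10 members had an unadjusted p under 0.05 (9.19% of genes did), and in liver also 2 of 10 (8.39% of genes). Every ART-Normal library lay on one side of both controls for 3 members in muscle (15.5% of genes) and for 3 in liver (18.5% of genes). A p over the threshold with 2 controls does not show that the groups are alike.

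AGO2 had the highest log2 difference of the members in both tissues, with no call. In muscle, the 4 ART-Normal fetuses, at 52.7 to 86.5 CPM, were all above the controls at 34.9 and 43.5 CPM, with a log2 difference of 0.72 ± 0.21 SE (1.65-fold, edgeR adjusted p = 0.342). The difference was 0.58 without Control-AI 2 (adjusted p = 0.968) and 0.88 without Control-AI 4 (adjusted p = 0.0333), so the call depended on which control was kept. In liver the ART-Normal values of 69.9 to 87.1 CPM were likewise all above 56.1 and 65.1 CPM, with a log2 difference of 0.34 ± 0.14 SE (1.27-fold, edgeR adjusted p = 0.581), and 0.26 without Control-AI 2.

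DROSHA was the other member whose ART-Normal libraries were all above the controls in both tissues, by less. The log2 difference was 0.18 ± 0.13 SE in muscle (edgeR adjusted p = 0.73) and 0.15 ± 0.13 SE in liver (adjusted p = 0.694). With 1 control left out, the liver difference was 0.23 (without Control-AI 2) or 0.083 (without Control-AI 4). For 2 of 10 members, AGO2 and DROSHA, the groups were thus separate in the same direction in both tissues, against 2.72% of the 10076 genes tested in both. Both tissues came from the same fetuses, so the second tissue is not an independent repeat.

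In muscle TRDMT1 had the lowest value of ART-Normal against Control-AI, -0.54 ± 0.23 SE on the log2 scale (edgeR adjusted p = 0.521), and this value rested on 1 library. Control-AI 2 was at 154 CPM and Control-AI 4, at 75.5 CPM, was within the ART-Normal range of 70.6 to 88.1 CPM. Without Control-AI 2 the difference was 0.077, and without Control-AI 4 it was -0.96. The muscle of Control-AI 2 was above the mean of the other 5 by 0.95 for TRDMT1 on the log2 scale. For genes whose opposite-strand neighbour had 16 or more times their counts, the median was 1.32. TRDMT1 is not among these genes, since VIM, opposite it, had 12.9 times its counts in muscle and 5.18 times in liver. The part of VIM reads in the TRDMT1 value was not tested.

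ELAC2 in liver was lower in every ART-Normal fetus (24.5 to 36.3 CPM) than in both controls (41.2 and 41.6 CPM), with a log2 difference of -0.45 ± 0.17 SE (edgeR adjusted p = 0.561). Leaving out Control-AI 2 gave -0.42, and leaving out Control-AI 4 gave -0.46. In muscle the ELAC2 groups overlapped, at -0.092 ± 0.19 SE, and the sign depended on the control kept (0.21 without Control-AI 2, -0.35 without Control-AI 4). AGO4 in muscle, at 25.7 to 29.2 CPM in ART-Normal fetuses, was below both controls at 29.8 and 34.3 CPM (log2 difference -0.26 ± 0.15 SE, edgeR adjusted p = 0.644; -0.16 without Control-AI 4), while in liver it was 0.076 ± 0.19 SE with groups that overlapped.

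The remaining 5 members had overlapping groups in both tissues. DICER1 differed by 0.050 ± 0.12 SE in muscle and 0.081 ± 0.13 SE in liver on the log2 scale, AGO1 by -0.015 ± 0.11 SE and -0.17 ± 0.13 SE, and AGO3 by 0.063 ± 0.15 SE and 0.13 ± 0.13 SE. NSUN2 differed by 0.10 ± 0.13 SE in muscle and -0.15 ± 0.15 SE in liver, and RNH1 by -0.26 ± 0.14 SE and -0.15 ± 0.21 SE. Single fetuses moved these small values: RNH1 was -0.11 in muscle without Control-AI 2 and -0.40 without Control-AI 4, and in liver -0.26 without ART-Normal 4 and -0.019 without ART-Normal 1. With all libraries, none of the 5 differed by more than 2 times its SE. The members' median size of change was 0.14 in muscle and 0.15 in liver, and that of all genes 0.14 and 0.17.

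**Figure D5:**
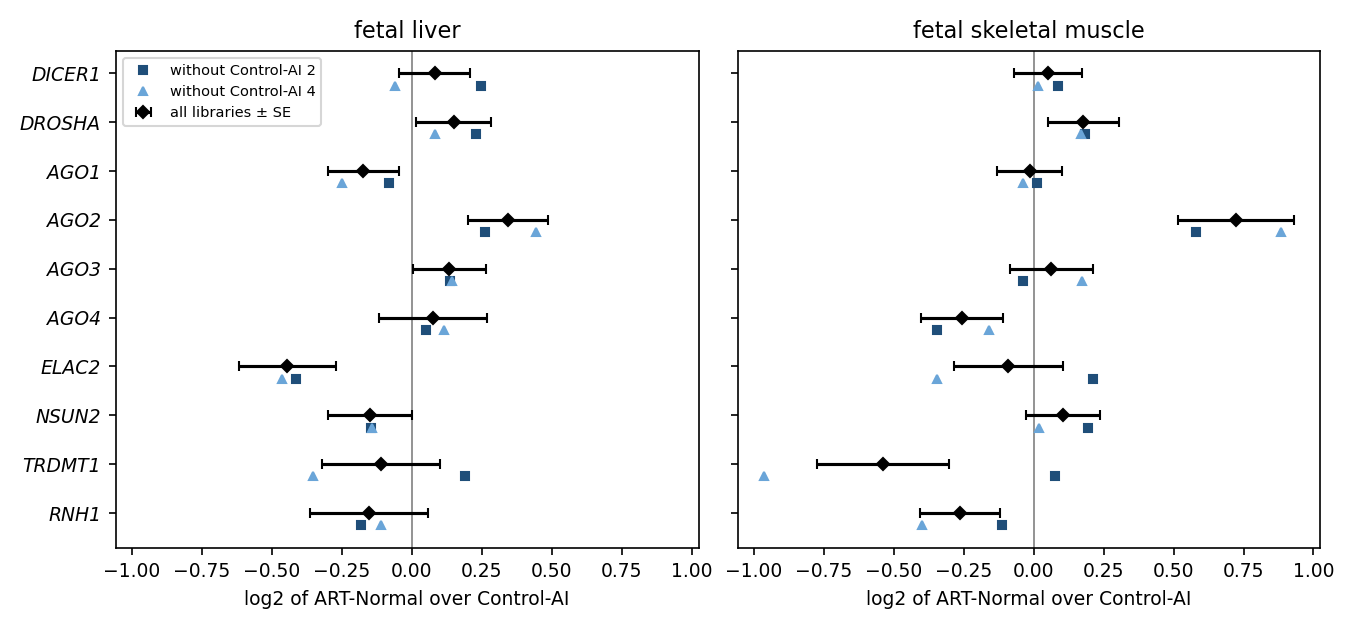
ART-Normal over Control-AI on the log2 scale (x axis) for each member (y axis) in liver and skeletal muscle. Diamonds are fitted values with SE over all 6 libraries of the tissue, and squares and triangles are the values with Control-AI 2 or Control-AI 4 left out. AGO2 stays to the right of 0 in both tissues, and TRDMT1 in muscle moves from -0.96 to 0.077 with the control that is kept.

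Whether the difference between conception groups itself differed between tissues was tested as an interaction, and no member was called (0% of 12923 genes were, by the edgeR quasi-likelihood test). The lowest adjusted p of a member was 0.949, and no member had an unadjusted p under 0.05. The difference of AGO2 was 0.37 smaller in liver than in muscle, with an SE of 0.27, and the sizes of change in the tissues were thus not shown to differ.

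Among the other genes of these pathways, none was called between conception groups, of 73 tested in muscle and 74 in liver. In muscle, 2 of the 73 had an unadjusted p under 0.05, against 9.19% of all genes, and are named here after their values were seen. TNRC6B, a scaffold protein that binds Argonautes and recruits the deadenylases, was 0.88 ± 0.27 SE higher in ART-Normal muscle on the log2 scale (edgeR adjusted p = 0.374) and 0.53 ± 0.18 SE higher in liver (adjusted p = 0.533). RNASET2, a lysosomal ribonuclease that can cut tRNA, was at -0.38 ± 0.16 SE in muscle (edgeR adjusted p = 0.517).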

How the data were processed

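RNA-seq libraries of fetal liver and skeletal muscle were made, per the labels, from poly(A)-selected RNA as strand-specific 150 bp paired-end libraries. The authors deposited raw read counts per gene, without normalization, counted across each gene's full span (ARS-UCD1.2). Per the labels' processing notes, FastQC 0.11.7, HISAT2 2.1.0, Cufflinks, SAMtools, featureCounts and edgeR 3.24.3 were used, with no role or options given. Tables of the authors' own comparisons (log2 fold changes, p-values and FDR) were not used. Of the count columns, 14 (7 per tissue) were not used, and 9 gene identifiers listed on 2 lines were kept as listed.

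Counts were tested with the quasi-likelihood test of edgeR 4.0.16 in R 4.3.3, with TMM normalization, genes at 5 CPM or more in all libraries of a group, and Benjamini-Hochberg adjustment over all genes tested at 0.05. Liver was compared with muscle with conception group as a covariate, ART-Normal with Control-AI within each tissue, and their interaction over 12 libraries. SEs came from the log2 change and its F statistic. Alternatives were RLE, upper quartile and library size normalization, no filter, 10 counts in every library, the likelihood ratio test, DESeq2 1.42.0, a replicate block, and each fetus left out in turn. The procedures were tested on simulated data. Plots were drawn in Python 3.11.15 (pandas 2.3.3, Matplotlib 3.10.9). Fragment sequences were read from the study's supplementary table, which was at hand in part. For each tRNA the longest fragment was taken that holds cacgcg around the methylated cytosine, or the CCA tail, with ties by name.

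The genes followed, the pathway and marker lists and the rule for naming genes (in each list, at most 2 called genes per direction, those changed most, plus RNASE4, ANG and opposite-strand partners of members) were chosen with earlier results of these data known. Some genes that this rule would name are not reported here. Both tissues came from the same fetuses, which pairs the tissues. Across genes, each fetus's deviations from its group mean in liver and muscle correlated at r = 0.36 (controls) and at 0.21, 0.038, 0.078 and 0.31 (ART-Normal 1 to 4). With the fetus as a replicate block, 10 members were called between tissues, as were 10937 of all 12923 genes tested. P-values measure the spread between these fetuses only.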

Additional observations from a re-analysis of the deposited data

Results flagged for a closer look

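AGO3 in the muscle of ART-Normal 4 was at 76.7 CPM, far below the 99.8 to 102 CPM of the other 3 ART-Normal muscles, with a gap to its nearest neighbour that was 0.918 of the group's range, past Dixon's critical value for 4 samples. Of 26 groups examined in this way 1 was flagged, and chance flags about 1 in 20. In the liver, AGO3 was also lowest among the ART-Normal fetuses in ART-Normal 4, at 44.8 CPM.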

How the results depend on the processing

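All 10 members kept their direction between tissues in each alternative, and 9 kept their call in all 14; AGO2 lost it in 2, given above. With library size alone, the median log2 change of all genes was -0.13 between tissues, 0.21 for conception in liver and 0.21 for the interaction, against 0.0061, 0.0075 and 0.0031 with TMM. Between conception groups, the number of genes called depended on the test: in muscle 1 gene was called, against 120 with the likelihood ratio test, 106 with DESeq2, 90 with a replicate block and 0 to 1327 with a fetus left out (5 without Control-AI 2, 1327 without Control-AI 4). In liver 0 were called, against 6 with library size alone, 89 with the likelihood ratio test, 56 with DESeq2, 6 with the replicate block and 0 to 830 with a fetus left out (830 without Control-AI 4). For the interaction, 0 became 98, 37 and 0 to 232 (232 without Control-AI 4). Members called between conception groups were 0 in each alternative that kept both controls. Without Control-AI 4, the muscle differences of AGO2 and TRDMT1 were larger, at 0.88 and -0.96. Leaving out a control leaves 1, which is assumed to vary like the others, so calls of members in those fits are not given. The cause of these changes was not tested.

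The replicate number in the labels pairs different fetuses in the conception comparison, whose deviations correlated at 0.012 and -0.11 in liver and 0.0060 and -0.13 in muscle, so it is only a number. ART-Normal 1 and 3 have no control of the same number, so with that block the conception values rested on numbers 2 and 4. With it AGO3 (-0.048) and ELAC2 (0.049) changed sign in muscle. With library size alone, AGO1 (0.040), NSUN2 (0.055), TRDMT1 (0.13) and RNH1 (0.048) did so in liver, and DROSHA (0.20) and AGO1 (0.073) in the interaction. With each fetus left out in turn, signs also turned. In muscle AGO1 ran from -0.040 to 0.011, AGO3 from -0.039 to 0.17, ELAC2 from -0.35 to 0.21 and TRDMT1 from -0.96 to 0.077, each turning without Control-AI 2. In liver TRDMT1 ran from -0.35 to 0.19 (turning without Control-AI 2), DICER1 from -0.060 to 0.25 (without Control-AI 4) and AGO4 from -0.026 to 0.14 (without ART-Normal 1). In the interaction DROSHA ran from -0.063 to 0.060 and RNH1 from -0.050 to 0.32 (both turning without Control-AI 2), and DICER1 from -0.051 to 0.18 and AGO3 from -0.0058 to 0.19 (both without Control-AI 4). None of the turned values was called. For the ratio of DICER1 to DROSHA, -0.085 without the pairing had an adjusted p of 0.0931. No transcript lengths were given, so balances use raw counts; per kb of listed span, an alternative chosen after seeing the data, the AGO2 share differed by 19.5 points.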

Other observations

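In liver, 8 of 74 tested pathway genes had an unadjusted p under 0.05 between conception groups by the edgeR quasi-likelihood test, against 8.39% of all genes, and none passed adjustment. They are named after their values were seen. The Argonaute scaffold TNRC6C was 0.33 higher in ART-Normal liver on the log2 scale, beside TNRC6B, given above. The other 6 were lower: RPP38 (-0.86) and POP5 (-0.38), subunits of the ribonuclease that trims the 5′ end of tRNAs, QTRT1 (-0.53), which places queuine in tRNA, METTL1 (-0.59), the 7-methylguanosine transferase of tRNAs, and the RNA polymerase III subunits POLR3A (-0.56) and POLR3K (-0.39). With 2 controls, these values rest on Control-AI 2 and 4 alone.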
